A study of Mus musculus with 2 samples.

Results

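Blood cell miRNA genes are a group of 9 microRNA genes known from white and red blood cells: Mir223, Mir142 (read from the row of its antisense partner Mir142b), Mir155, Mir146, Mir146b and Mir150 of leukocytes, and Mir451a, Mir144 and Mir486 of erythroid cells. They were chosen by symbol, with no measured value in the rule, from 1973 gene rows in the count table of each library. The tissue was the embryonic facial prominence, the buds that build the face and jaws, of B6NCrl mice, taken at embryonic day 12.5. There was 1 group with 2 libraries. Replicate 1 pooled 120 embryos and replicate 2 pooled 88, of both sexes in each, so the comparisons are between genes within the tissue and between the 2 pools. In a whole tissue, fewer blood cells and less of a miRNA per cell cannot be told apart.

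A miRNA is cut from a hairpin in a longer transcript and loaded into an Argonaute protein, where bases 2 to 8 of the mature strand, the seed, select the mRNAs it represses. Blood cell types carry distinct sets of miRNAs. miR-223 marks the myeloid lineage, miR-142 is made in nearly all haematopoietic cells, and miR-144 and miR-451a are made from the same transcript during red cell maturation. At this stage of mouse development the blood in the vessels of the head consists mainly of red cells, and tissue macrophages have begun to settle.

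The mature strands that define these genes are shown with the seed in capitals, since the seeds show which members could act on shared targets. The sequences are from RefSeq on GRCm38.p6, which matched 8 of the 9 members by symbol, and each is written 5′ to 3′. The counts join both arms of a hairpin, so the level of an individual strand was not measured.
miR-223-3p: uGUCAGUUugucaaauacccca
miR-142a-5p: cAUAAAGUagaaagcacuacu
miR-142a-3p: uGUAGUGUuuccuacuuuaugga
miR-155-5p: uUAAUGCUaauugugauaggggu
miR-146a-5p: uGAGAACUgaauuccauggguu
miR-146b-5p: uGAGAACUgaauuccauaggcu
miR-144-3p: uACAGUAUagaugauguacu
miR-451a: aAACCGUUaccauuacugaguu

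Only miR-146a-5p and miR-146b-5p shared a seed among these strands. They were identical at 20 of 22 bases and differed by G18A and U21C, with miR-146a-5p first and positions counted from the 5′ end. Apart from that pair, no other mouse gene in the RefSeq table had a mature strand with the seed of any strand shown. This bears on the counting, since a read with several mapping places was given to no gene. Of the 16 mature strands listed for the members and their antisense partners, 15 occurred in exactly 1 of 1005 mouse hairpins. The exception, miR-150-3p, occurred in 0, and the hairpin of Mir150 was not among those searched. Mir486 is not among the strands searched or shown, Mir150 is not among those shown, and the search covered hairpins, not the genome.

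Replicate 1 held 4719337 own-strand counts on miRNA genes and replicate 2 held 5929220. Levels are in CPM, the count scaled to a total of 1000000 of these. Detection required 10 counts or more in each library, the equivalent of 2.12 CPM (replicate 1) and 1.69 CPM (replicate 2). Skeletal mesenchyme genes (4 of 4 measured), cartilage genes (2 of 2) and epithelial genes (7 of 7) were all detected. So was every measured gene of the endothelium, smooth muscle, skeletal muscle and liver lists. Detection alone therefore does not single out the labelled tissue. The skeletal mesenchyme genes made up 4.76% of all counts in replicate 1, against 4.81% in replicate 2. Most of this was Mir214, at 45630 CPM in replicate 1 and 45910 CPM in replicate 2.

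The blood cell genes were present at low to middle levels. Of the 9 members, 8 were detected, and Mir146b was not. Together they made up 0.110% of counts in replicate 1, against 0.127% in replicate 2. The median mean level of the 8 detected members was 109.7 CPM, against 123 CPM over all 396 detected genes (Mir142 included), and 4 members lay above that general median and 4 below it. The highest member ranked at place 141 and the lowest detected member at place 316.

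**Figure D1:**
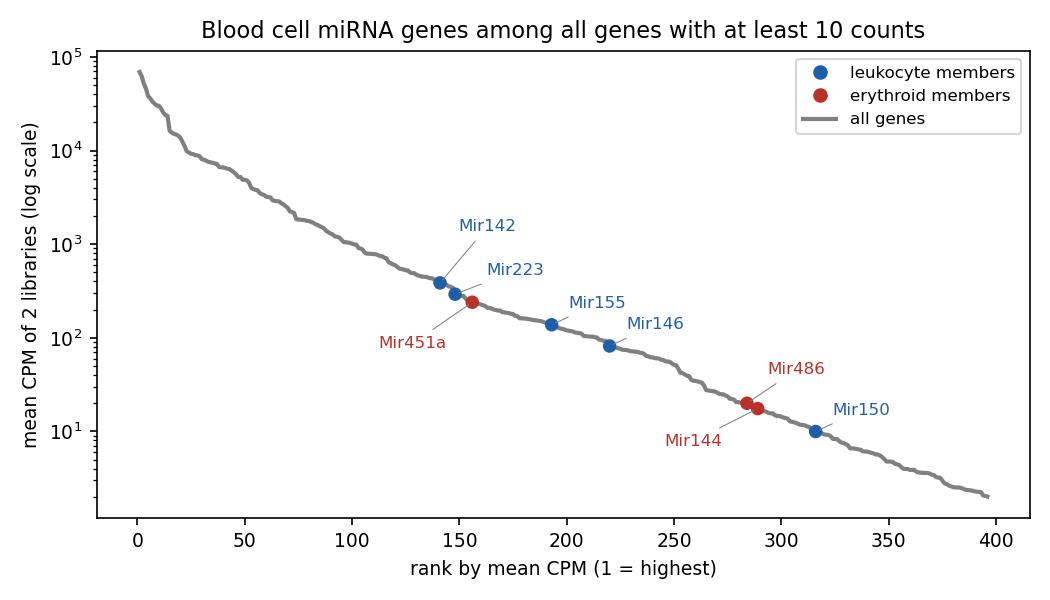
Mean CPM of the 2 libraries (log scale) against rank for all 396 genes with at least 10 counts in both libraries (line), with the 8 detected blood cell genes as points, blue for leukocyte and red for erythroid members. The members run from place 141 (Mir142) to place 316 (Mir150).

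Among leukocyte genes, Mir142 was the highest. The Mir142b row (ENSMUSG00000065420.2) covers chromosome 11, positions 87756841 to 87756955 on the minus strand of GRCm38, and Mir142 lies within it on the plus strand, at positions 87756864 to 87756927, within an intron of Mir142hg, a noncoding gene. The hairpins show how the genes face each other. Capitals mark both mature strands in Mir142, and in Mir142b the stretch complementary to the Mir142 hairpin.
Mir142: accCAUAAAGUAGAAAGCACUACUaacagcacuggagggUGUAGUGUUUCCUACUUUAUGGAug
Mir142b: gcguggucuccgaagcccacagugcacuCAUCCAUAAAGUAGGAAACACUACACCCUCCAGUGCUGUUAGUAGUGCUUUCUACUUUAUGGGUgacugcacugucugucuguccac

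All reads of this row lay on the Mir142 strand, 1628 in replicate 1 and 2528 in replicate 2. The Mir142b strand had 0 counts in both libraries, which allows up to 0.636 CPM (replicate 1) and 0.506 CPM (replicate 2). Mir142 thus stood at 345 CPM (exact Clopper-Pearson interval 328 to 362) in replicate 1 and 426 CPM (410 to 443) in replicate 2, a mean of 386 ± 57.6 CPM (SD, n = 2). These intervals cover counting error only, not the spread between pools, and no molecular identifiers were used here.

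Mir223, which restrains neutrophil production and activity, lay on chromosome X, positions 96242817 to 96242926, in an exon of the transcript F630028O10Rik. It had 1359 counts in replicate 1 and 1757 in replicate 2, or 288 and 296 CPM, a mean of 292 ± 5.91 CPM (SD, n = 2). It was below Mir142 in both libraries. The count ratio of Mir223 to Mir142, which needs no scaling of libraries, was 0.835 (exact interval 0.776 to 0.898) in replicate 1 and 0.695 (0.654 to 0.739) in replicate 2. These intervals do not overlap, so the balance of the pair differed between the pools by more than counting error. Of the genes that are no member, Mir330 was nearest in level to Mir223, at 279.9 CPM (replicate 1) and 278 CPM (replicate 2), a distance of 0.10 on the log2 scale over the 2 libraries.

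Mir155 and Mir146 are known from immune activation. Mir155, carried in an exon of its host Mir155hg on chromosome 16 (positions 84714140 to 84714204), is induced in activated lymphocytes and macrophages. It had 137 CPM in replicate 1, against 138 CPM in replicate 2, with a mean of 138 ± 0.581 CPM (SD, n = 2), from 648 and 819 counts. Mir146 on chromosome 11 (positions 43374397 to 43374461, no host gene on its strand) encodes miR-146a, which dampens Toll-like receptor and NF-kB signalling. It had 96.2 CPM in replicate 1 and 67.1 CPM in replicate 2, from 454 and 398 counts. Mir155 exceeded Mir146 in both pools, with a count ratio of 1.43 (interval 1.26 to 1.61) in replicate 1 and 2.06 (1.82 to 2.33) in replicate 2.

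The paralogue Mir146b, in an intron of Mfsd13a on chromosome 19 (positions 46342762 to 46342870), was near the limit of this depth. It had 6 counts in replicate 1 and 5 in replicate 2, or 1.27 CPM (interval 0.467 to 2.77) and 0.843 CPM (0.274 to 1.97). Mir146 outnumbered it 75.7 to 1 (interval 34.5 to 207) in replicate 1 and 79.6 to 1 (33.8 to 246) in replicate 2. Nearly all counts of this gene pair thus came from Mir146. Because the counts join both arms, the share of the 5p strands, which carry the common seed, was not measured.

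Mir150, which is abundant in mature lymphocytes and represses Myb, lay on chromosome 7 (positions 45121757 to 45121821) with no host gene on its strand. It was the lowest detected leukocyte gene, with 47 counts (9.96 CPM, interval 7.32 to 13.2) in replicate 1 and 59 counts (9.95 CPM, interval 7.57 to 12.8) in replicate 2. Its level was far under that of Mir223 and Mir142 in each pool.

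The leukocyte members together held 0.0878% of counts (interval 0.0851 to 0.0905) in replicate 1 and 0.0939% (0.0914 to 0.0964) in replicate 2, a mean of 0.0908% ± 0.00432 (SD, n = 2). Mir142 made up 39.3% of these counts in replicate 1 and 45.4% in replicate 2, and Mir223 a further 32.8% and 31.6%. Mir155 gave 15.6% and 14.7%, Mir146 11.0% and 7.15%, and Mir150 1.13% and 1.06%, in replicates 1 and 2. Without Mir142 the share was 0.0533% in replicate 1 and 0.0512% in replicate 2.

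**Figure D2:**
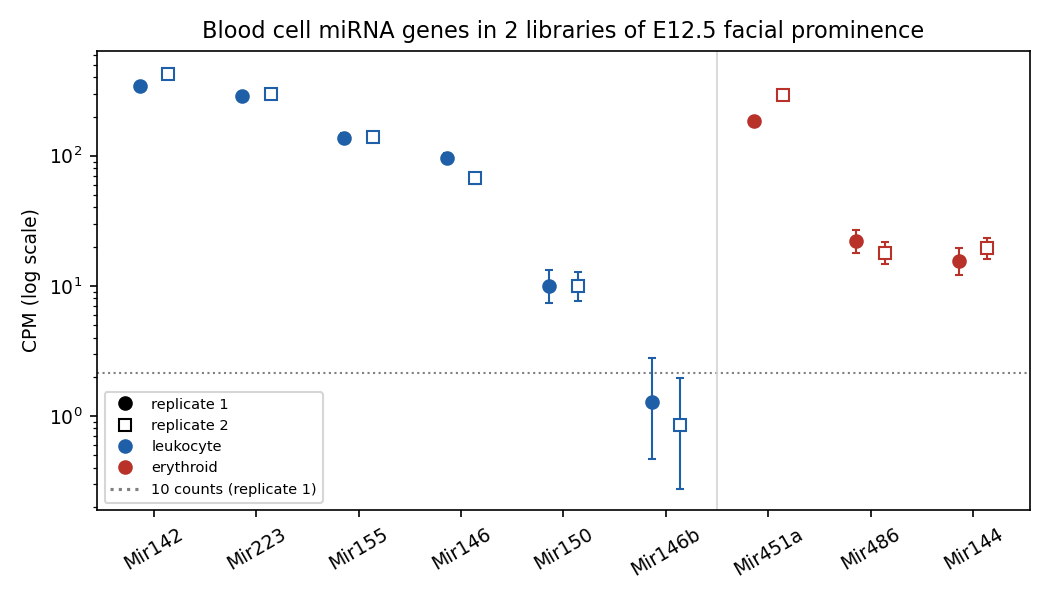
CPM (log scale) of the 9 blood cell genes in replicate 1 (filled circles) and replicate 2 (open squares), leukocyte genes in blue and erythroid genes in red, with exact 95% intervals for counting error, some smaller than the symbols. Mir142, Mir223 and Mir451a lie between 186 and 426 CPM in both libraries, and Mir146b lies under the dotted line, which marks 10 counts in replicate 1.

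Among erythroid genes, Mir451a was by far the most abundant, and the neighbour it is transcribed with was low. Mir144 (chromosome 11, positions 78073005 to 78073070) and Mir451a (positions 78073170 to 78073241) lie on the same strand with 99 bases between them. Their common transcript is driven by GATA1 in red cell precursors. Mir451a had 876 counts (186 CPM, interval 174 to 198) in replicate 1 and 1741 counts (294 CPM, interval 280.0 to 308) in replicate 2, a mean of 239.6 ± 76.4 CPM (SD, n = 2). Mir144 had 73 counts (15.5 CPM, interval 12.1 to 19.4) in replicate 1 and 116 counts (19.6 CPM, interval 16.2 to 23.5) in replicate 2.

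The ratio of Mir451a to Mir144 was 12.0 (interval 9.44 to 15.5) in replicate 1 and 15.0 (12.4 to 18.3) in replicate 2. The intervals overlap, and both lie far above equal amounts. How well counts compare amounts of different miRNAs was not tested. Mir451a is unusual in its making: its short hairpin is sliced by Argonaute 2 without Dicer, and the mature strand, in capitals, runs through the loop. An antisense gene, Mir451b, is annotated over the same positions, and its hairpin is shown with its mature strand in capitals.
Mir451a: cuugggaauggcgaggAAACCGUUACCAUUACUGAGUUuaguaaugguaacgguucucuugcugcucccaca
Mir451b: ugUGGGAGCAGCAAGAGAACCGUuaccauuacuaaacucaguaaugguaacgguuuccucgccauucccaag

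Each hairpin is the reverse complement of the other. With each counted from its own start, as written here, 52 of 72 positions carry the same base. Even so, 0 counts lay on the Mir451b strand in both libraries, with the same limits of 0.636 and 0.506 CPM as for Mir142b. The mature strand of Mir451a does not occur in the Mir451b hairpin.

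Mir486, in an intron of the ankyrin gene Ank1 on chromosome 8 (positions 23142555 to 23142682), is known from both red cells and skeletal muscle. It had 104 counts (22.0 CPM, interval 18.0 to 26.7) in replicate 1 and 106 counts (17.9 CPM, interval 14.6 to 21.6) in replicate 2. The miRNA gene Mir3107 is annotated on the opposite strand there. Whether reads that fit both genes were lost from these counts, and from the erythroid share, was not tested. The counted levels of Mir486 and Mir144 changed places between the pools, so their order was not fixed. The muscle gene Mir206 had 1068 CPM in replicate 1 and 1472 CPM in replicate 2, and Mir133b 12.9 and 25.6 CPM. Both muscle genes were thus lower in replicate 1, and the intervals of Mir486 in the pools overlapped. The part of muscle in the Mir486 counts was not tested.

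Erythroid members held 0.0223% of counts (interval 0.0210 to 0.0237) in replicate 1 and 0.0331% (0.0317 to 0.0346) in replicate 2. Mir451a gave 83.2% of them in replicate 1 and 88.7% in replicate 2, Mir486 9.88% and 5.40%, and Mir144 6.93% and 5.91%. The count ratio of leukocyte to erythroid members was 3.93 (interval 3.68 to 4.21) in replicate 1 and 2.84 (2.69 to 2.99) in replicate 2. The 6 leukocyte members together thus gave more counts than the 3 erythroid members in both pools. The balance between the lists differed between the pools by more than counting error. Without Mir142 the ratio averaged 1.97.

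By mean level the members ran from Mir142 over Mir223, Mir451a, Mir155, Mir146, Mir486, Mir144 and Mir150 to Mir146b. Of the 8 neighbouring pairs in this order, 6 did not overlap between their values in the 2 libraries. The other pairs did not differ beyond their spread: Mir223 and Mir451a, which were nearly equal in replicate 2 (ratio 1.01) but not in replicate 1 (1.55), and Mir486 and Mir144. Mir145a of smooth muscle was the gene nearest in level to Mir451a that is no member, at 196 CPM (replicate 1) and 274 CPM (replicate 2), a distance of 0.13 on the log2 scale over the 2 libraries.

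Between the pools, Mir451a differed most among the detected members, followed by Mir146, while the ratios of Mir223, Mir155 and Mir150 lay close to 0 on the log2 scale. A two-sided exact binomial test, adjusted by Benjamini-Hochberg over all 396 detected genes, compared the libraries, not conditions. It called 207 genes, 52.3% of those tested, with 26.0% higher in replicate 1 and 26.3% higher in replicate 2. Of the 8 detected members, 3 were called, 1 higher in replicate 1 and 2 lower. So few members cannot show whether their share differs from that background. At a limit of 2-fold as well, 4.04% of genes were called, and 0 members. The median absolute log2 ratio was 0.30 over the members and 0.22 over all detected genes.

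On the log2 scale, replicate 1 over replicate 2, Mir451a had a ratio of -0.65 (interval for counting error -0.77 to -0.53, exact binomial adjusted p = 8.34e-28), which put it at place 48 of 396 by size. Its neighbour Mir144 had -0.33 (interval -0.77 to 0.11, exact binomial adjusted p = 0.226), an interval that covers the ratio of Mir451a as well as 0. Mir486 had 0.31 (interval -0.09 to 0.72, exact binomial adjusted p = 0.203), so its interval lies above that of Mir451a. The count ratio of Mir451a to Mir486, 8.42 in replicate 1 and 16.4 in replicate 2, therefore differed between the pools by more than counting error. Mir486 alone did not, as its interval covers 0. The interval of Mir144 overlaps those of Mir451a and Mir486.

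Mir146 had a log2 ratio of 0.53 (interval 0.33 to 0.73, exact binomial adjusted p = 2.80e-07) and was the called member that was higher in replicate 1. Mir142 was lower there, at -0.29 (interval -0.38 to -0.20, exact binomial adjusted p = 4.97e-10). For Mir223 the value was -0.029 (interval -0.13 to 0.074), for Mir155 0.0039 (-0.15 to 0.15) and for Mir150 0.014 (-0.57 to 0.59), none of them called. The interval of Mir150 is wide because of its low counts.

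These calls cover counting error alone. When the spread between the pools was used as the error (a biological coefficient of variation of 0.190 over all detected genes, estimated from these same 2 libraries), edgeR's exact test called 0 members, with adjusted p = 1 for each of the 8 and 0 at an unadjusted p under 0.05. The lowest unadjusted p in that exact test was 0.101, for Mir451a. The differences of Mir451a, Mir146 and Mir142 thus passed against counting error and did not pass against the general spread between these 2 pools.

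**Figure D3:**
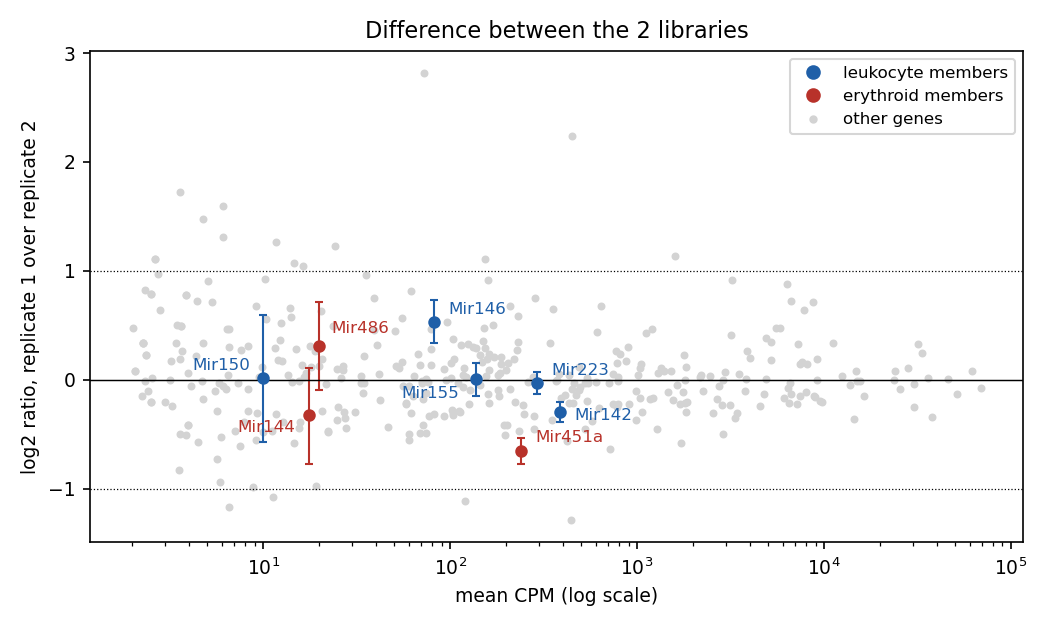
Log2 ratio of replicate 1 over replicate 2 against mean CPM (log scale) for all 396 detected genes, other genes in grey, leukocyte members in blue and erythroid members in red with exact 95% intervals for counting error; dotted lines mark 2-fold. All 8 detected members lie within 2-fold, with Mir451a lowest at -0.65 and Mir146 highest at 0.53.

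A further list of 13 miRNA genes with known roles in blood cells, most of them also made in other tissues, made up 2.71% of counts in replicate 1, against 2.35% in replicate 2, and 12 of them were detected. The highest was Mir342, which is known from lymphocytes and is carried by the gene Evl, at 10749 CPM in replicate 1 and 6624 CPM in replicate 2. It was followed by Mir21a, a broadly expressed miRNA that is also made in myeloid cells, at 6617 and 7785 CPM, Mir139 at 3634 and 2763 CPM, and Mir22 at 2672 and 2798 CPM, each in replicates 1 and 2. Mir511, in macrophages a product of the mannose receptor gene, was not detected, with 1 count in replicate 1 and 9 in replicate 2. Of the 12 detected genes, 2 were called higher in replicate 1, 5 lower and 5 were not called, against the same background of 52.3%. Their median log2 ratio was -0.041. The endothelial gene Mir126a stood at 29030 CPM in replicate 1 and 27230 CPM in replicate 2, and the liver gene Mir122 at 13.8 and 13.5 CPM.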

How the data were processed

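Small RNA libraries from 2 pools of embryonic facial prominence were analysed as 1 group. Raw counts of reads per miRNA gene were deposited by the authors for each library, from an alignment to mm10 with a GENCODE annotation, per the file descriptions. The aligner, counting tool and trimming are not given in the sources used here. Per library, the columns gave both strands, the gene's own strand (taken as the column with 96.8% of gene reads in replicate 1 and 96.7% in replicate 2) and the opposite strand. Reads that named no gene (unmapped, multimapped or outside listed genes) made up 57.3% of 11414919 reads in replicate 1 and 52.1% of 12792420 in replicate 2, and were left out of library sizes.

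Symbols and positions (1-based, GRCm38) are from GENCODE M21, which named 1894 of 1973 rows. Own-strand counts were used, except that Mir142 takes the opposite-strand counts of Mir142b. CPM divide by own-strand gene counts. Log2 ratios use TMM factors of 0.996 and 1.004 (edgeR 4.0.16, R 4.3.3). Because 2 libraries of 1 group leave no residual degrees of freedom for edgeR's quasi-likelihood test, each gene was given an exact binomial test. The test was two-sided (SciPy 1.17.1), with calls at an adjusted p under 0.05, and was tried on simulated data. Those data held counting error only, so they do not show how the test behaves under the spread between the pools. Intervals are exact Clopper-Pearson at 95%. A count of 0 allows up to 3 counts. Named genes are all members, antisense partners, the further blood list, marker genes and the nearest gene in level to Mir223 and Mir451a. The members and lists were chosen with earlier results of these data known. Alternatives were other scalings, both strands, count minimums, another denominator, another test and leaving out each library. The replicates came from separate pools, per the labels.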

Additional observations from a re-analysis of the deposited data

Results flagged for a closer look

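Mir486 had reads on the strand opposite to it, outside the own-strand counts used for its level, above the 3 counts that a count of 0 allows. There were 12 in replicate 1 (10.3% of the reads of the row, exact interval 5.46 to 17.4) and 11 in replicate 2 (9.40%, interval 4.79 to 16.2). The annotation places the miRNA gene Mir3107 and an antisense transcript on that strand. Of 395 genes detected on their own strand, 4 had over 5% of reads opposite in both libraries, Mir486 among them, while 340 had 0 in both. Of the 7 members detected there, 5 had 0 opposite reads, and Mir150 had 2 in replicate 1 and 1 in replicate 2.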

How the results depend on the processing

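With the spread between the pools as the error (edgeR exact test), the genes differing came to 2 in place of 207, and also to 2 in place of 16 at 2-fold (Mir1247 and Mir181a-2, named after their values were seen), and the members differing to 0 in place of 3. The adjusted p per member under that test was added after seeing the data. A minimum of 100 counts left 6 genes at 2-fold, and no filter on low counts gave 24. The log2 ratio of Mir155 turned to -0.0030 with DESeq2 size factors and to -0.0086 with total counts, and was not called under either. With all reads as the denominator the leukocyte share was 0.0399% and the erythroid share 0.0123%. With own-strand counts for Mir142b the leukocyte share was 0.0523% and the leukocyte to erythroid ratio 1.97. Leaving out a library gave ranges of 0.0878 to 0.0939% and 0.0223 to 0.0331% for the shares, and of 2.84 to 3.93 for their ratio. The number of members called stayed at 3 under both other scalings, both strands and both other count minimums. Depth limits Mir146b, Mir150, Mir144 and Mir486 most. No paired analysis was possible because there was 1 group.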
